A study of Homo sapiens with 36 samples.

Results

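The androgen 5α-dihydrotestosterone (DHT) was compared with the natural progestin progesterone (P4) in ZR-75-1 cells, an estrogen receptor positive line of human breast cancer. The comparison rests on the 8 arrays that the sample labels assign to DHT alone (4 arrays) and to P4 alone (4 arrays), out of 36 arrays in 9 groups of 4 in the series. Each steroid was given for 16 h at 10 nM in phenol red free medium with hormone stripped serum, and no estradiol (E2) was present. Further groups used beside it, all of the same line, dose and time, were medroxyprogesterone acetate (MPA), a synthetic progestin, DHT together with E2 (E2+DHT), P4 together with E2 (E2+P4), and the vehicle ethanol. The 3 groups E2, E2+MPA and E2pre+P4 (P4 after a longer exposure to E2) entered the shared estimate of the spread. RNA was measured on Illumina HumanWG-6 v3 bead arrays, with 1 array per sample. Nothing in the labels says that the 4 samples of a group came from separate cultures, so that p-values measure only the spread between these samples.

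DHT and P4 share the steroid nucleus and a ketone on its first ring. DHT carries a hydroxyl group where P4 carries an acetyl side chain, and P4 has a double bond in the first ring that DHT lacks. Androgens and progestins act through receptors of the 3-ketosteroid class, which bind the same inverted repeat of a short DNA sequence. The progesterone receptor gene is regulated by estrogen, although not every breast cancer line depends on estrogen to express it. MPA is known to act as a progestin and also to have androgenic activity. Among the genes that androgens are known to change in breast and prostate cells are the UGT2B enzymes, which attach glucuronic acid to androgens and their metabolites and so prepare them for excretion.

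The arrays did not all behave alike, and the groups were spread unevenly over them. The first principal component held 47.7% of the variance over 9902 genes, and it ran from 16.96 to 58.4 on the 12 arrays of sets 3 and 4, where a set stands for 6 consecutive samples in deposited order, against -33.8 to 1.72 on the others, apart from vehicle replicate 1 at 78.0. DHT replicates 1, 2 and 4 lay in these sets, at 28.3, 29.8 and 28.9. DHT replicate 3, at -32.9, lay in set 6 with P4 replicates 1 and 4, and the P4 arrays ran from -28.3 to -19.8. Over all genes, DHT replicate 3 correlated with the P4 arrays at 0.986 to 0.987 and with the other DHT arrays at 0.941 to 0.946, whereas those 3 correlated with each other at 0.982 to 0.988. The labels name no batch. Since set and steroid largely coincide, a fit with the 6 sets as a block is set beside the main counts, and beside each named gene whose call between DHT and P4 it ended. For some genes the difference inside set 6 is given too, DHT replicate 3 minus the mean of P4 replicates 1 and 4, which is a value with no test and uses arrays that made the calls. Comparisons with MPA and vehicle are given without the block. In the E2 pair, 1 array of each group lay in sets 3 and 4, that of E2+DHT in set 3 and that of E2+P4 in set 4, and set 1 was the only set that held both groups. Beyond these groups, a pair of arrays went against their labels: replicate 2 of E2 lay nearer to the other E2pre+P4 arrays in 68 of 69 genes that separated both groups, and replicate 2 of E2pre+P4 nearer to the other E2 arrays in 68. The block fit is therefore also given on 34 arrays, without this pair.

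**Figure D1:**
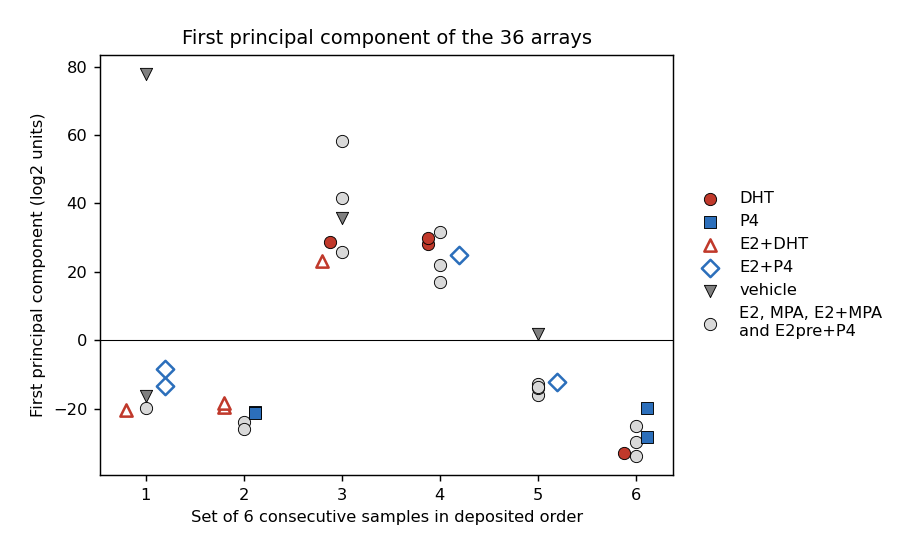
First principal component of each of the 36 arrays (vertical axis, log2 units) by the set of 6 consecutive samples in deposited order (horizontal axis); each point is 1 array. DHT replicates 1, 2 and 4 sit between 28.3 and 29.8 in sets 3 and 4, while DHT replicate 3 and the 4 P4 arrays sit between -32.9 and -19.8 in sets 2 and 6.

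On the 8 arrays, between 12191 and 13745 of 48803 probes were detected (24.98% to 28.2%), and the upper quartile of the signal ran from 239.4 to 456.4. Their number limits the precision, and the median 95% interval of a difference reached 0.400 to each side on the log2 scale. The cells carried the markers of luminal breast epithelium: 15 of 16 (all but CLDN4) were detected on every DHT and every P4 array. Their mean level was 12.9 to 12.98 on DHT arrays and 12.9 to 13.02 on P4 arrays. Of the markers of other cells, 4 of 8 basal, 10 of 11 fibroblast, 9 of 11 leukocyte and 7 of 10 endothelial genes were detected on none of the 8 arrays, PTPRC, CD3E, CDH5 and KDR among them. Other members were detected on every DHT and every P4 array. These were the basal genes ACTA2, CDH3 and TAGLN, the fibroblast gene COL1A1, and the leukocyte genes CD68 and CD8A.

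To ascertain which genes the androgen and the natural progestin leave at different levels when estrogen is absent, the groups were compared in limma over 9902 genes. In all, 141 genes (1.42% of those tested) differed at a Benjamini-Hochberg adjusted p under 0.05. After DHT, 82.3% of them were higher than after P4 (1.17% of all genes) and 25 were lower (0.252%). UGT2B7, UGT2B28 and UGT2B11 stood far above the rest, and UGT2B10, C1orf116, the water channel AQP3, the von Willebrand factor VWF, the tight junction protein CLDN8 and the alcohol dehydrogenase ADH1C came next by fitted difference. DOCK2, an activator of the GTPase Rac, fell most. Here and below, a gene that rose or fell was higher or lower after DHT than after P4, which is not a change from vehicle. This count rests on DHT replicate 3, without which 826 genes were called, 53.6% of them higher, while without DHT replicate 1 there were 91. Of the 141 genes, 138 had DHT and P4 arrays that did not overlap, which held for 8.01% of all genes.

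With the sets as a block, 57 genes were higher and 21 lower after DHT (0.788% of the genes, 0.576% higher and 0.212% lower), and 66 of them, 51 higher and 15 lower, were among the 141. The difference was smaller in size under the block for 109 of the 141, with a median ratio of 0.820. On 34 arrays the block fit called 96 genes (0.97%), 71 higher (0.717%) and 25 lower, of which 75 were among the 141. The part of the sets in the remaining calls was not tested.

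**Figure D2:**
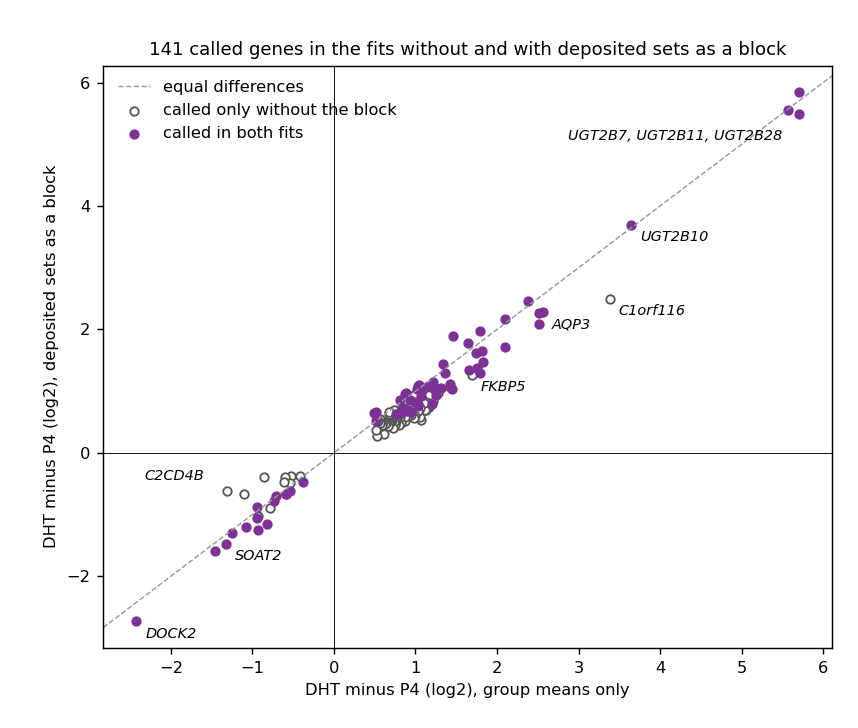
Log2 difference DHT minus P4 of the 141 called genes in the fit with group means only (horizontal axis) and in the fit with the deposited sets as a block (vertical axis); each point is a gene, filled where it was called in both fits, and the dashed line marks equal differences. The UGT2B genes and DOCK2 lie near the line, and C1orf116, at 3.38 and 2.49, is the open point with the largest difference.

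The genes of the UGT2B family form a cluster on human chromosome 4. RefSeq promoters (GRCh38.p14) were at hand for 3 of the 4 members called here. Each run below is the 250 bases before the annotated start, 5′ to 3′ on the gene's strand, and capitals mark stretches of 8 or more bases that all 3 share on that strand. They are shown because these genes were among the largest fitted differences and moved together.
UGT2B7 (chr4:69096224-69096473, plus strand): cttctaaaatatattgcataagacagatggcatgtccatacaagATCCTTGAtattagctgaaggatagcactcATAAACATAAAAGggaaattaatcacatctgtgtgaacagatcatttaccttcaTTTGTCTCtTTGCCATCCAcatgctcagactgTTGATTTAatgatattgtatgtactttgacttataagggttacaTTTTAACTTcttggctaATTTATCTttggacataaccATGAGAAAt
UGT2B10 (chr4:68815744-68815993, plus strand): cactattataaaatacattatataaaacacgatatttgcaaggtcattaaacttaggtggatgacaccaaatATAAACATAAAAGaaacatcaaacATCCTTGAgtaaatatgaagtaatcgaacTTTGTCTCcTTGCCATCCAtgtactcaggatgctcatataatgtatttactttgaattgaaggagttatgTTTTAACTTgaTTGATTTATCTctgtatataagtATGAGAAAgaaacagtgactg
UGT2B11 (chr4:69214749-69214998, minus strand): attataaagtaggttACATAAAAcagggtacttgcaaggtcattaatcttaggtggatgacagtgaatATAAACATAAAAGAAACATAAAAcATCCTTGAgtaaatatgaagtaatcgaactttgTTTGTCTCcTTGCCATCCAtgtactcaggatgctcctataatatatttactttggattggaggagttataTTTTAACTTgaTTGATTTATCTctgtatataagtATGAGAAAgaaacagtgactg
The UGT2B10 and UGT2B11 promoters were identical at 90.2% of 254 aligned positions, against 62.7% of 263 for UGT2B10 and UGT2B7 and 64.5% of 265 for UGT2B11 and UGT2B7. The longest shared stretch had 23 bases in UGT2B11, where stretches run together, and 13 in the other promoters. The hexamer TGTTCT and the inverted repeat bound by these receptors, which is this hexamer after its reverse complement and a gap of 3 bases, were searched on both strands. Neither was found in these 3 windows, nor in those of the other leading genes with a promoter sequence (0 of 18 in all, among the 26 genes with the largest differences). Of all 35116 promoters of this length, 12.4% held the hexamer and 0.00285% the full repeat. Counted by gene, 10.6% of tested genes with a promoter held the hexamer, as did 10 of 110 called genes (9.09%). The full repeat was in no tested gene, so that no leading gene could hold it. Sites outside these 250 bases were not searched, so that binding of the receptors cannot be judged from these counts.

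Of 7 listed UGT2B genes, 4 passed the filter on dim probes and were called higher. UGT2B10 was detected on no P4, MPA, vehicle or E2+P4 array, so that its passing the filter depends on the groups where it is high. The same holds for SLC2A5. UGT2B28, AQP3, ADH1C and LRFN2 were detected on no P4, vehicle or E2+P4 array. UGT2B7, UGT2B11, VWF and OLR1 were detected on at most 1 array of each of these groups. For all of these genes, passing the filter may depend on their high groups too. On the log2 scale, UGT2B7 stood at 12.54, 12.42, 12.36 and 12.49 on the DHT arrays, against 6.83, 6.89, 6.49 and 6.77 on the P4 arrays. P4 arrays did not detect it, so that DHT was at least 42.4-fold higher (limma adjusted p = 4.1e-17). UGT2B28 was at 11.44, 11.31, 11.52 and 11.29 after DHT, against 5.57, 5.63, 5.93 and 5.64 after P4, where again no array detected it (at least 20.3-fold, adjusted p = 5.22e-23). These genes were high on every DHT array, DHT replicate 3 included, and at the background on every P4 array. UGT2B11 stood at 12.13, 11.93, 12.003 and 12.13 after DHT, against 6.24, 7.18, 6.62 and 5.87 after P4, of which only 1 detected it (log2 difference 5.57, adjusted p = 1.41e-20). UGT2B10 had 9.29, 9.23, 9.44 and 8.84 after DHT, against 5.59, 5.36, 5.34 and 5.93 after P4, none of them detected (at least 4.45-fold, adjusted p = 5.39e-17). The levels of the groups were far apart for each of the 4 genes. Inside set 6 their log2 differences were 5.56 (UGT2B7), 5.92 (UGT2B28), 5.95 (UGT2B11) and 3.67 (UGT2B10), and in the block fit 5.48, 5.85, 5.55 and 3.69 in the same order. A second probe was kept for UGT2B7 and for UGT2B11, and it was higher by 5.33 and 4.23. UGT2B15 and UGT2B17, which act on DHT metabolites, were detected on 0 of 36 arrays. Members of this family are similar in sequence, and the probe sequences were not used here, so that signal shared between the members cannot be told apart. Where the arrays of a group did not detect a gene, only the bound is a fold, and its log2 difference runs down to the background level, as it largely does for UGT2B11 and C1orf116 with P4.

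MPA left UGT2B7, UGT2B28 and UGT2B11 between DHT and P4. UGT2B7 averaged 12.5 ± 0.08 after DHT, 9.81 ± 0.21 after MPA, 6.75 ± 0.18 after P4 and 6.78 ± 0.90 with vehicle (SD, n = 4 each). MPA was at least 6.82-fold above P4 for UGT2B7 (limma adjusted p = 1.07e-09) and at least 2.998-fold for UGT2B28 (adjusted p = 1.43e-14). UGT2B10 was detected on no MPA array and no P4 array. DHT exceeded MPA by 2.64 ± 0.25 for UGT2B7, 2.76 ± 0.15 for UGT2B28 and 2.59 ± 0.19 for UGT2B11 (log2, SE), which passed the test in each. The MPA arrays, like the P4 arrays, lay outside sets 3 and 4. P4 minus vehicle ran from -0.04 ± 0.25 for UGT2B7 to 0.69 ± 0.19 for UGT2B11 (log2, SE), with adjusted p from 0.103 to 0.928.

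Among genes known to be induced by androgens, 6 of 23 measured members rose and 0 fell, where 1.17% of all genes rose. The median log2 difference of the list was 0.396, and 0.186 with undetected genes at their bound, beside 0.0544 and 0.0453 over all genes. Under the block 3 members were called, and on 34 arrays 5. C1orf116, described as a specifically androgen-regulated gene, had 10.29, 10.52, 9.96 and 10.42 after DHT, against 6.53, 7.01, 7.14 and 6.97 after P4, of which 1 array detected it (log2 difference 3.38, adjusted p = 0.00972). FKBP5, a co-chaperone of steroid receptors and a gene commonly induced by androgens, progestins and glucocorticoids, had 11.38, 11.45, 11.50 and 11.42 after DHT, against 9.78, 9.68, 9.65 and 9.86 after P4 (3.23-fold, adjusted p = 0.0017). In both genes all 4 DHT arrays, replicate 3 included, exceeded every P4 array. Both calls were lost in the block fit on 36 arrays, with adjusted p of 0.346 for C1orf116 and 0.12 for FKBP5, and were made on 34 arrays, with differences of 3.17 (adjusted p = 3.97e-11) and 1.56 (adjusted p = 4.59e-08). Inside set 6 they were 3.21 and 1.68. GNMT, a glycine methyltransferase, rose by 1.76 ± 0.29 and IQGAP2, a scaffold of the cytoskeleton, by 1.74 ± 0.20 (log2, SE). These kept their call in the block fit, at 1.37 and 1.62. EAF2, a transcription elongation cofactor, rose by 1.46 and TPD52, a protein of vesicle traffic, by 0.684. The call of TPD52 was not made under the block (adjusted p = 0.322). TMPRSS2 had 7.03, 7.03, 6.99 and 7.24 after DHT, against 7.16, 6.55, 6.72 and 7.13 after P4, and was not called (difference 0.183, adjusted p = 0.659). It was detected on 1 DHT and 2 P4 arrays, near the background. The prostate genes KLK3 and KLK2 were detected on 0 of 36 arrays.

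Of genes known to be induced by progestins, 1 of 29 measured members passed the test, near the share of all genes (1.42%). That gene was FKBP5, which rose with DHT. The list's median difference was 0.0589. SERPINA3, a secreted inhibitor of serine proteases, had 7.64, 7.47, 7.48 and 7.51 after DHT, against 8.61, 9.09, 8.58 and 9.03 after P4. All P4 arrays lay above all DHT arrays, yet the difference of -1.30 ± 0.53 (SE) was not called (adjusted p = 0.254). Without the pair of doubtful arrays the same difference had an SE of 0.235 and was called (adjusted p = 0.000976). With the sets as a block it was -1.87 (adjusted p = 0.314) on 36 arrays and -1.39 (adjusted p = 0.0119) on 34, and -1.34 inside set 6. MPA arrays ran from 8.91 to 9.46 and vehicle arrays from 6.96 to 8.61. The exact permutation test over the 8 arrays gave p = 0.0286 for SERPINA3, the smallest two-sided p that 4 against 4 allow. SEPTIN4 differed by 0.228 ± 0.25, THOC5 by 0.323 ± 0.20, EGFR by -0.12 ± 0.19 and EGF by -0.705 ± 0.34 (log2, SE), with adjusted p from 0.309 to 0.765. EGF was detected on 1 DHT and 4 P4 arrays, and its difference was 0.0102 in the block fit and 0.196 inside set 6. SEPTIN4 was detected on 1 DHT array and no P4 array, near the background.

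**Figure D3:**
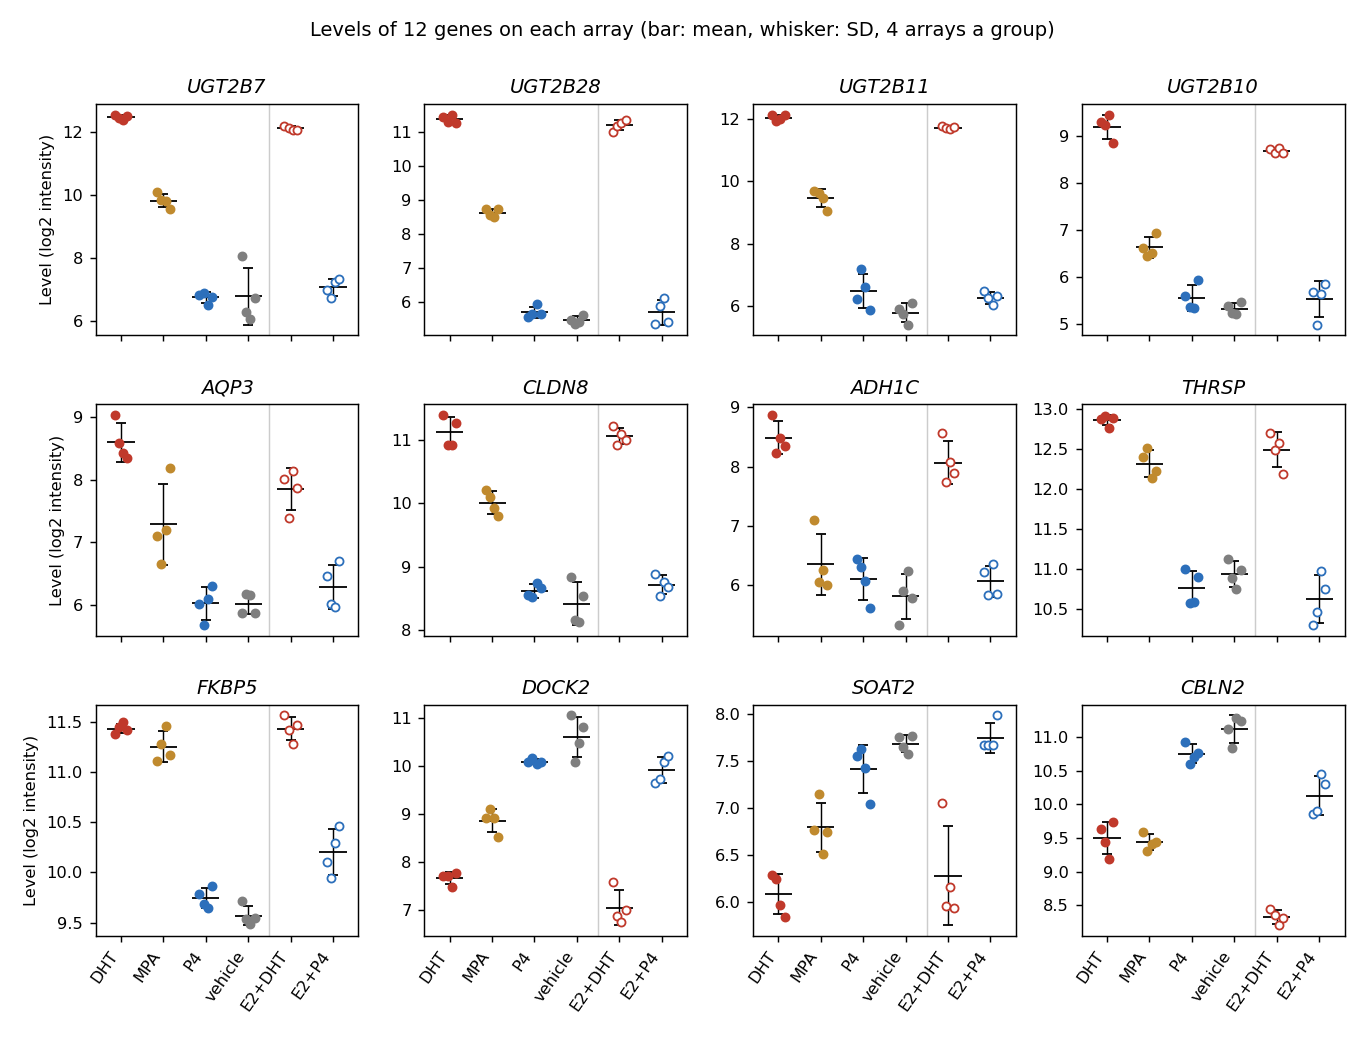
Level of 12 named genes on each array (vertical axis, log2 intensity after normalization) in cells given DHT, MPA, P4 or vehicle, and in cells given E2+DHT or E2+P4 (open points); bars are means and whiskers SD of 4 arrays. UGT2B7 sits between 12.36 and 12.54 with DHT and between 6.49 and 6.89 with P4, and DOCK2 between 7.47 and 7.76 with DHT and between 10.04 and 10.16 with P4.

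Of 18 measured ion and anion transporters 2 were called, with a list median of 0.0205, where 1.42% of all genes were called. Some channels and transporters outside that list differed as well. AQP3, a channel for water and glycerol, had 9.03, 8.58, 8.42 and 8.34 after DHT, against 6.02, 5.69, 6.11 and 6.31 after P4, all undetected (at least 2.92-fold, adjusted p = 4.92e-08). CLDN8 was measured well in both groups, at 11.39, 10.92, 10.92 and 11.27 after DHT, against 8.54, 8.51, 8.75 and 8.66 after P4 (5.70-fold, adjusted p = 1.56e-11). It was the only one of 14 measured tight junction genes that was called, a count near the share of all genes, and the median of that list was 0.0212. SLC26A3, a chloride and bicarbonate exchanger, had 10.93, 10.33, 10.71 and 10.52 after DHT, against 9.01, 8.68, 8.58 and 9.05 after P4 (3.47-fold, adjusted p = 0.000236). The potassium channel KCNMA1 rose by 0.874 ± 0.16 (log2, SE, adjusted p = 0.00101). With MPA, SLC26A3 and KCNMA1 did not differ from DHT past the threshold, with DHT minus MPA at 0.13 (95% interval -0.46 to 0.73) and -0.11 (-0.44 to 0.21). The fructose transporter SLC2A5 was detected on 3 of 4 DHT arrays and on no P4 array (at least 1.54-fold, adjusted p = 8.58e-06). The 4 genes AQP3, CLDN8, SLC26A3 and SLC2A5 were called in the block fit, with log2 differences of 2.27, 2.27, 1.97 and 1.48, and inside set 6 they differed by 2.25, 2.32, 1.68 and 1.35.

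Some genes of alcohol, lipid and steroid metabolism rose as well. ADH1C had 8.87, 8.23, 8.48 and 8.35 after DHT, against 6.44, 6.30, 6.08 and 5.62 after P4, all undetected (at least 2.71-fold, adjusted p = 7.15e-08), and it was 1 of 18 measured alcohol and aldehyde dehydrogenases called. THRSP, a nuclear protein linked to fat synthesis, had 12.88, 12.91, 12.77 and 12.89 after DHT, against 10.998, 10.58, 10.59 and 10.91 after P4 (4.27-fold, adjusted p = 7.15e-08). The DHT arrays of both genes lay above every P4 array, which was a condition for a place among the leading genes. ACACA, the first committed enzyme of fatty acid synthesis, rose by 0.81 ± 0.17 (log2, SE, adjusted p = 0.00508). The other 21 of the 23 measured genes of fatty acid synthesis and storage were not called. Of 24 genes of cholesterol synthesis and uptake, MVK, which encodes mevalonate kinase, rose by 0.801 ± 0.21 (adjusted p = 0.0405), a call that the block fit did not make (0.456, adjusted p = 0.731). SOAT2, which esterifies cholesterol, fell. HSD17B2, which inactivates estradiol and testosterone, was at 9.50, 8.68, 8.45 and 9.12 after DHT, against 7.73, 8.003, 7.03 and 7.90 after P4 (2.41-fold, adjusted p = 0.00101). In the block fit its difference was 0.978 (adjusted p = 0.0584), and on 34 arrays 1.03 (adjusted p = 0.037). It was 1 of 16 measured steroid-converting enzymes outside the UGT2B family that passed the test. Of all genes 1.42% were called, so that a single call in a list of this size lies near the background.

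The other genes among the 14 largest positive differences were VWF, OLR1, LRFN2 and KRT4. VWF, the von Willebrand factor made by endothelial cells, had 7.78, 8.61, 7.99 and 8.58 after DHT, against 5.80, 5.61, 5.69 and 5.78 after P4, all undetected (at least 2.29-fold, adjusted p = 3.04e-07). Of the 10 endothelial markers, VWF was the only one called, and 7, with CDH5, KDR, TEK and EMCN among them, were detected on none of the 8 arrays. The mean level of that list ran from 5.99 to 6.35 on DHT arrays and from 5.64 to 5.84 on P4 arrays. OLR1, a receptor for oxidised lipoprotein, stood at 8.60, 8.33, 7.34 and 8.30 after DHT, against 5.94, 6.09, 6.29 and 5.83 after P4 (at least 2.14-fold, adjusted p = 8.25e-06). DHT replicate 3 was the lowest DHT array for OLR1, and also for LRFN2 and KRT4. LRFN2, a synaptic adhesion protein, was at least 2.03-fold and KRT4, a keratin of stratified mucosa, at least 2.77-fold higher after DHT. Inside set 6 these 3 genes differed by 1.46, 0.93 and 1.10, against 2.10, 1.82 and 1.80 over all arrays. Of the 14 genes, 13 were called in the block fit on 36 arrays, all but C1orf116, and 14 in that on 34 arrays. The apocrine gene SERHL2, a hydrolase-like gene, rose by 1.22 ± 0.14 (log2, SE) on its brightest probe, while its second probe differed by 0.0101. For DHRS2, a short chain dehydrogenase of the same list, the second probe moved the other way, by -0.807, against 0.884 on the first, so that the direction depends on the probe. The other 20 of 22 measured apocrine and secretory genes were not called (median of the list -0.119), where 1.42% of all genes were called.

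DOCK2 fell most. It stood at 7.70, 7.71, 7.47 and 7.76 after DHT, against 10.07, 10.16, 10.04 and 10.07 after P4, a difference of -2.43 ± 0.21 (log2, SE, adjusted p = 1.62e-09). The arrays of each group lay close together, and the groups far apart. In the block fit the difference was -2.73, and inside set 6 -2.60. With MPA, DOCK2 was at 8.52 to 9.09, between the other steroids, and with vehicle at 10.07 to 11.05. It was the only one of 11 measured DOCK family genes that was called, beside 1.42% of all genes, and the list's median was 0.135. LMO1, a cofactor of transcription without DNA binding of its own, had 6.24, 5.67, 5.46 and 5.70 after DHT, where no array detected it, against 6.90, 7.07, 7.68 and 7.25 after P4, where 2 did (at least 1.04-fold lower, adjusted p = 0.000736). SOAT2 stood at 6.29, 6.24, 5.97 and 5.84 after DHT, undetected, against 7.56, 7.63, 7.42 and 7.05 after P4 (at least 1.19-fold lower, adjusted p = 0.00178). CBLN2, a secreted organiser of synapses, had 9.63, 9.44, 9.19 and 9.73 after DHT, against 10.93, 10.59, 10.71 and 10.77 after P4 (adjusted p = 0.00324). MPA held it at 9.31 to 9.59, the range of the DHT arrays, and DHT minus MPA was 0.06 (95% interval -0.44 to 0.57). CGNL1, a junction protein, fell by 0.946 on the log2 scale (adjusted p = 0.000134), and FGB, the fibrinogen beta chain, fell by 1.08 (adjusted p = 0.0103, and 0.0537 with the block on 34 arrays). All DHT arrays of these genes lay below all P4 arrays, which was a condition for a place among the leading genes and adds no support.

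The remaining genes among the 12 largest negative differences were less firm. C2CD4B had 8.12, 8.69, 9.22 and 8.29 after DHT, against 10.15, 9.78, 9.67 and 9.95 after P4, and ACKR3, a scavenging receptor for the chemokine CXCL12, had 10.66, 10.61, 11.17 and 10.53 after DHT, against 11.66, 11.59, 11.68 and 11.45 after P4. CDC7, a kinase that starts DNA replication, had 7.14, 7.61, 8.16 and 7.39 after DHT, against 8.86, 8.34, 8.71 and 8.82 after P4. In these 3 genes DHT replicate 3 was the DHT array nearest to the P4 arrays. Their differences of -1.31, -0.854 and -1.11 became -0.62, -0.384 and -0.659 in the block fit, with adjusted p of 0.219, 0.533 and 0.313. CCDC178 and GSDMC, a gasdermin, were detected on no DHT array and on every P4 array (at least 1.23-fold and 1.16-fold lower) and kept their call under the block, whereas ASB9 was detected on no array of either group and lost its call there (adjusted p = 0.0668).

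The steroid receptor genes ESR1, PGR and NR3C1 were not called. ESR1 had 10.89, 10.68, 10.74 and 10.81 after DHT, against 10.97, 10.87, 10.87 and 10.83 after P4 (difference -0.108, 95% interval -0.58 to 0.36). PGR was detected on 0 of 4 DHT arrays and 0 of 4 P4 arrays, and in the E2 pair it averaged 8.26 ± 0.19 with E2+DHT and 8.19 ± 0.33 with E2+P4 (log2, SD, n = 4 each). These are RNA values, and no other probe of PGR was kept. Absence of the receptor cannot be read from them, since the paper's immunoblots detected its protein in ZR-75-1 cells given vehicle. NR3C1, the glucocorticoid receptor, was detected on 2 arrays of each group. NCOA1, a coactivator of steroid receptors, rose by 0.87 ± 0.21 (log2, SE, adjusted p = 0.0239) but not under the block (0.512, adjusted p = 0.297). None of 30 measured genes known to be induced by estrogen was called by limma (median -0.0245). TFF1 averaged 12.4 ± 0.33 after DHT and 12.45 ± 0.06 after P4, and CTSD 12.6 ± 0.14 and 12.6 ± 0.13 in the same order (log2, SD, n = 4 each), while CCND1 differed by -0.143 and BCL2 by -0.0987, with adjusted p of 0.543 and 0.869. Of 35 DNA replication genes, CDC45, which unwinds DNA at the fork, fell by 0.381 on the log2 scale (adjusted p = 0.0413, and 0.0509 with the block on 34 arrays) and the others did not pass the test, with a list median of -0.103. Limma called 0 of 35 mitosis genes and 0 of 20 cyclins and G1 regulators, with medians of -0.0609 and -0.0982. At the share of all genes, 1.42%, fewer than 1 call falls to a list of this size, so that these counts and that of the estrogen-induced genes lie near the background.

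**Figure D4:**
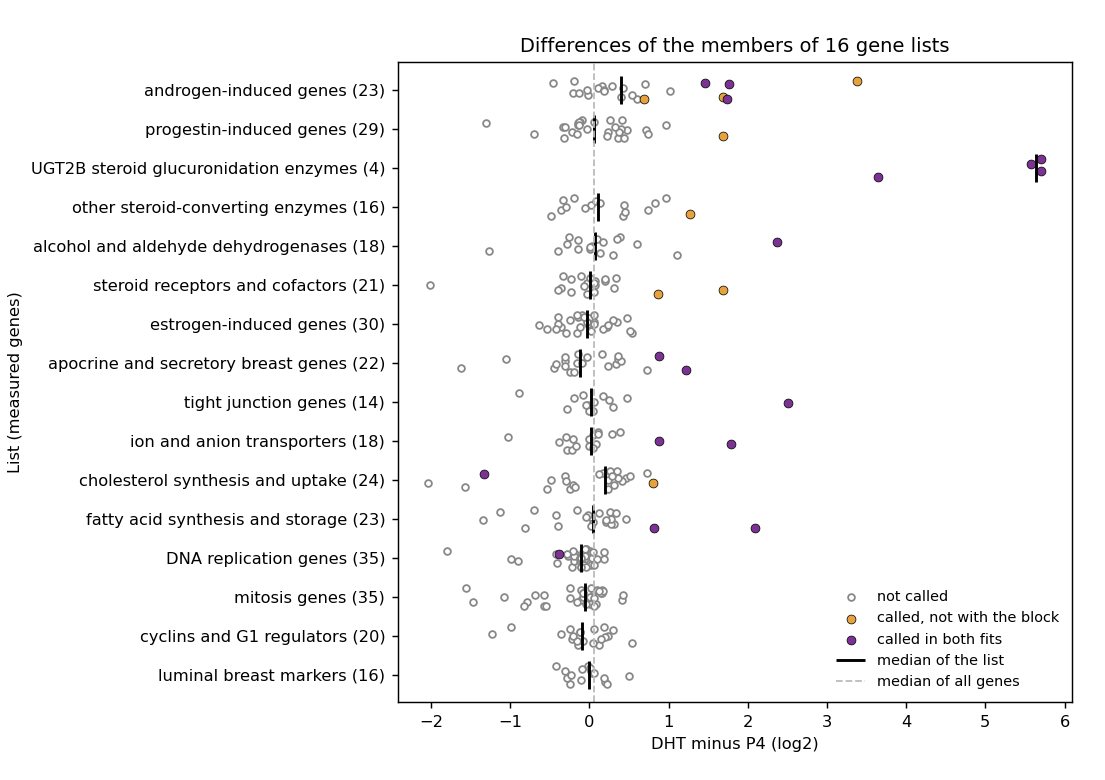
Log2 difference DHT minus P4 (horizontal axis) of each measured member of 16 gene lists (vertical axis, number of measured genes in brackets); points are genes, filled where called, black bars are list medians and the dashed line is the median of all genes, 0.0544. The UGT2B enzymes have a median of 5.63, and 4.87 with undetected genes at their bound. That median covers only the 4 of 7 members that passed the filter on dim probes, which may depend on the groups where they are high. The estrogen-induced, mitosis and cyclin lists hold no called gene.

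The comparison of the same steroids in the presence of E2 was made on other arrays and asked whether the difference depends on estrogen. E2+DHT against E2+P4 gave 58 higher and 16 lower genes (0.747% of the genes tested, 0.586% higher and 0.162% lower), and 84 genes with the sets as a block (0.848%, and 0.656% higher). Of the 141 genes that separated DHT and P4 without E2, 61 were called with E2, all in the same direction, which is 43.3% of the 141 and 82.4% of the 74. The sign was shared by 133 of the 141 genes, against 43.4% of all genes. Across the 141 genes the differences of the pairs correlated at 0.947 (Pearson) and 0.828 (Spearman), a description over genes that were chosen by a difference in one of the pairs. Of the 66 genes called also in the block fit, 50 were called with E2 (75.8%), and of the other 75 genes 11 were (14.7%). The E2+DHT and E2+P4 arrays enter the block fit and the shared estimate of the spread. These calls are therefore not independent, and why the shares differ was not tested. UGT2B28 had 10.997, 11.20, 11.28 and 11.35 with E2+DHT, against 5.36, 5.87, 6.11 and 5.42 with E2+P4 (at least 17.5-fold, adjusted p = 1.39e-22). DOCK2 had 7.58, 6.86, 6.74 and 6.99 with E2+DHT, against 9.64, 9.71, 10.08 and 10.20 with E2+P4 (difference -2.87, adjusted p = 2.63e-11). The 14 genes with the largest positive differences were all called with E2, and so were 7 of the 12 with the largest negative ones.

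The difference between the pairs was tested directly, as DHT minus P4 less E2+DHT minus E2+P4. Limma called 0 of 9902 genes, with 845 at an unadjusted p under 0.05 and a lowest adjusted p of 0.54, and with the sets as a block 0 again, with 216 unadjusted. The median 95% interval of this contrast reached 0.566 to each side (log2). This is an unadjusted interval, and changes of 1.00 and more were not called. AQP3 was higher after DHT by 2.56 without E2 and by 1.56 with E2, a change of 1.00 (95% interval 0.26 to 1.74), and UGT2B10 by 3.64 and 3.14, a change of 0.50 (0.03 to 0.98), neither past the adjusted threshold. For CLDN8 the change was 0.16 (-0.36 to 0.68) and for DOCK2 0.44 (-0.16 to 1.04). For CDC7, DHT minus P4 was -1.11 and E2+DHT minus E2+P4 was 0.04, and this change was not called either (limma adjusted p = 0.54).

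**Figure D5:**
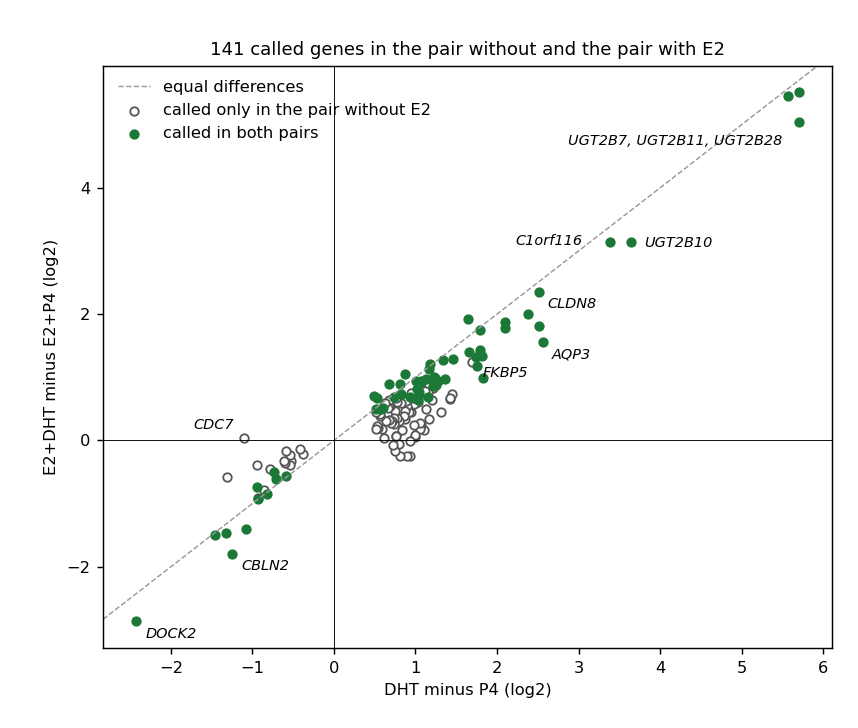
Log2 difference of the 141 called genes between DHT and P4 (horizontal axis) and between E2+DHT and E2+P4 (vertical axis); each point is a gene, filled where it was called in both pairs, and the dashed line marks equal differences. Points run from DOCK2, at -2.43 and -2.87, to the UGT2B genes, between 3.64 and 5.70 without E2 and between 3.14 and 5.52 with E2. Other genes lie off the line, such as CDC7 at -1.11 and 0.04, and 61 of the 141 were called in both pairs.

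Beside the third steroid and vehicle, on the same fit and with shared arrays, the leading genes had these values. MPA exceeded P4 past the threshold in 7 of the 14 genes with the largest positive differences (37 of all genes, 0.374%, with 0.353% higher and 0.0202% lower), and DHT exceeded MPA in 11 of the 14 (30 of all genes, 0.303%, with 0.263% higher and 0.0404% lower). UGT2B10 is among the 7 genes called between MPA and P4, although no array of either group detected it. Between DHT and MPA, THRSP differed by 0.54 (95% interval 0.10 to 0.98), FKBP5 by 0.18 (-0.47 to 0.84) and KRT4 by 0.62 (0.04 to 1.20), with adjusted p of 0.423, 0.793 and 0.427. DHT differed from vehicle in 14 of the 14 and in 8 of the 12 genes with the largest negative differences (238 of all genes, 2.4%, with 1.1% higher and 1.3% lower). P4 differed from vehicle in 0 of these 26, and in 0 of all 9902 genes in limma, with 2608 genes at an unadjusted p under 0.05 and a lowest adjusted p of 0.0944. Vehicle replicate 1, which stood apart from all other arrays, enters these values.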

How the data were processed

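RNA of ZR-75-1 cells was hybridised to 36 Illumina HumanWG-6 v3 arrays, with 1 array per sample and 4 per group. The authors exported probe intensities on a linear scale, with no normalization, and the deposited detection p-value column holds 1 minus the detection p of each probe. A second deposited table gives intensities of the same arrays after a straight-line change of each array (slopes 0.324 to 1.57, with medians of 5.4 to 30.9 and up to 43.7% of values below 0), whose purpose is not given in the sources used here, so that it served only as an alternative. The variance stabilisation and batch adjustment of the study's methods are not in these files.

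Intensities were corrected and quantile normalized by neqc (limma 3.58.1 in R 4.3.3, offset 16) and taken to log2. Probes stayed in where 4 or more of the 36 arrays had a detection p below 0.01. Of 48803 probes, 27578 had 1 gene symbol, 13 several and 21212 none in the platform annotation, and the kept probe with the highest mean stood for a gene, which left 9902 genes. Means of the 9 groups were fitted over all 36 arrays by limma with Benjamini-Hochberg adjustment over all genes, and every adjusted p in the text is from such a fit unless another test is named. Single genes were also tested by an exact two-sided permutation of 4 against 4 arrays, for which 70 splits exist. The script was tested on simulated data. Where no array of a group detected a gene, a bound is given: the mean of the brighter group over the mean of the higher of the probe's own signal and the lowest detected signal on each array of the other.

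Named are the 14 largest positive and 12 largest negative differences among called genes without overlap, up to 4 called members of each of 30 gene lists, and a fixed panel of receptors and targets; other names were chosen after their values were seen. The members and lists were chosen with earlier results of these data known. Alternatives were another normalization, no background correction, the second table, other probe filters, averaged probes, the arrays of a contrast alone, array weights, a replicate block, the deposited sets of 6 as a block, and single arrays left out. Versions of the block without doubtful arrays, or with sets 3 and 4 against the others, and arrays left out of the E2 pair, were added after seeing the data. Promoters came from RefSeq.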

Additional observations from a re-analysis of the deposited data

Results flagged for a closer look

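In all, 112 groups of 4 values were tested in the DHT and in the P4 arrays. They were the named genes, the first principal component, the number of detected probes and the upper quartile of the signal. Of these groups, 3 held an array whose gap to the others passed Dixon's 95% limit, which is 2.68% where chance gives about 5%. The first principal component of the DHT arrays was -32.8553 for DHT replicate 3, against 28.3 to 29.8 for the other 3. IQGAP2 stood at 10.025 on DHT replicate 2, against 9.36 to 9.46 on the other DHT arrays, all above P4. TMPRSS2 stood at 7.239 on DHT replicate 4, against 6.99 to 7.03 on the other DHT arrays, and was not called. Probes with no gene symbol were used in no comparison of genes: of 2291 such probes, 19.0 were called between DHT and P4, 16 higher and 3 lower after DHT, and 9 of them also with the deposited sets as a block. Of 12821 probes with a symbol, 137 (1.07%) were called in the same fit.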

How the results depend on the processing

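The count of 141 genes between DHT and P4 fell to 78 with the deposited sets as a block, of which 66 were shared, and grew to 3586 with array weights, which ran from 0.123 to 6.14 and gave DHT replicate 3 a weight of 0.272. When single arrays were left out, 91 genes (without DHT replicate 1) to 826 genes (without DHT replicate 3) were called, and without DHT replicate 3 only 53.6% were higher, beside 82.3% with it. The share of higher genes was 73.1% with the sets as a block and 74.8% of 163 genes under cyclic loess. Between E2+DHT and E2+P4, 74 genes became 510 with array weights and 133 with the sets as a block when the pair of doubtful arrays and vehicle replicate 1 were left out, and 51 to 62 when single arrays were left out. The change of the difference with E2 called 0 genes in limma as reported and 3004 with array weights, and 0 in every other alternative, with 0 to 0 over single arrays left out. The cause of these shifts was not tested. Other alternatives gave 96 to 168 genes between DHT and P4. With the replicate number as a replicate block, 135, 76 and 0 genes were called in the 3 contrasts. The deviations of same-numbered DHT and P4 arrays correlated at 0.167, 0.163, -0.0634 and 0.084 for numbers 1 to 4, so that the number does not pair the arrays. Of the 38 named genes that were called, 21 were called in every alternative that tested them other than array weights, and none changed sign in any that tested them. The filter on the 8 arrays alone left SLC2A5, LMO1 and ASB9 untested. SERHL2 was not called when its probes were averaged (adjusted p = 0.255). CCDC178, GSDMC, ASB9, CDC45, MVK, NCOA1, DHRS2, C2CD4B, ACKR3 and CDC7 each lost their call when at least 1 single array was left out. Signal near the background limits genes that one group did not detect to a bound.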

Other observations

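Genes of peroxisomes and of acyl carnitine metabolism were seen among the called genes outside the lists. They were picked after their values were seen, and no theme was tested. CRAT, which moves acetyl groups between carnitine and coenzyme A, averaged 10.8 after DHT and 9.40 after P4, a difference of 1.45 ± 0.24 (log2, SE, adjusted p = 0.000356). CROT, the peroxisomal carnitine transferase for medium chains, averaged 9.65 after DHT and 8.58 after P4, and PEX10, a factor of peroxisome assembly, 13.1 after DHT and 11.9 after P4. Both were also called in the block fit, with differences of 0.914 and 1.15, and in the E2 pair, with 0.93 and 0.87. The peroxisomal membrane protein PXMP4 differed by 0.94 and the enzyme ECI2, an isomerase of unsaturated fatty acid oxidation, by 0.488, both called in the block fit. ACAA1, the peroxisomal thiolase, differed by 0.751 and lost its call there (adjusted p = 0.0809). In the E2 pair ECI2 was called (0.709), and CRAT, PXMP4 and ACAA1 were not, with differences of 0.743, 0.449 and 0.473 and adjusted p of 0.301, 0.562 and 0.285.

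SOCS2, an inhibitor of growth hormone signalling, averaged 10.8 after DHT and 9.16 after P4, a difference of 1.65 ± 0.21 (log2, SE). It was 1.78 in the block fit, 1.96 inside set 6 and 1.92 between E2+DHT and E2+P4. ADH1A, a class I alcohol dehydrogenase like ADH1C, averaged 7.59 after DHT, with 3 arrays detected, and 6.48 after P4, with none detected. Its difference of 1.11 was not called (adjusted p = 0.0921), but that of 1.84 with the sets as a block on 34 arrays was (adjusted p = 9.13e-05). Probes of these related genes may share signal, which was not tested. ADH1A was 1 of 21 genes called in that fit and not among the 141.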
